A study of Mus musculus with 14 samples.

Results

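The genes described here are 10 imprinted genes, 5 of the Dlk1-Meg3 cluster on chromosome 12 (Dlk1, Meg3, Rian, Mirg and Rtl1) and 5 others that are often studied with them (Peg3, Mest, Plagl1, Grb10 and Ndn). They were found by symbol in a table of 24016 transcripts, where each of the 10 had 1 transcript. The cells were C2C12, mouse myoblasts bought from a cell bank and not authenticated again, transfected with a pool of siRNAs against Klf5 (siKlf5) or control siRNA (siCtrl). Cells of both kinds were taken on day 0, in growth medium, and on days 1, 2 and 3 after a change to differentiation medium with horse serum, in which myoblasts fuse into myotubes. Each combination of siRNA and day gave a single RNA-seq library, 8 libraries in total, and so had no replicate. Where a test is given, the 4 days served as blocks for the siRNAs and both siRNAs served as blocks for the days.

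An imprinted gene is expressed mainly from the copy inherited from 1 parent. In the Dlk1-Meg3 cluster the paternal copy gives the protein-coding genes Dlk1 and Rtl1, and the maternal copy gives the long noncoding RNAs Meg3, Rian and Mirg with many small RNAs that lie within them. Many imprinted genes are active in the embryo and placenta, decline after birth and act on growth, and several are known from muscle precursor cells. The reads were not split by parental copy, so whether these genes were imprinted in C2C12 cells was not tested. The word imprinted is used here for what is known of the genes elsewhere.

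Levels are FPKM values as the authors deposited them, reads per kilobase of exon scaled to a matrix total of 10000000 for each library, and so exceed FPKM as it is commonly computed. The reads behind each value were recovered from the exon lengths, and the libraries held between 7850497 (siCtrl, day 1) and 20301506 reads (siCtrl, day 2) on the table. Klf5 fell under siKlf5, by 1.92 on the log2 scale with an SE of 0.19 (limma, adjusted p = 0.0122), and its level was lower in siKlf5 on 4 of 4 days. This call held in 5 of 13 other settings and was lost in limma without trend (adjusted p = 0.438), with limma's robust setting (0.0653), with no filter (0.561), without the day block (1.0) and without any 1 of the 4 days (0.178 to 0.679), while the direction held in all 13. The summed level of 8 skeletal muscle markers ran from 3245 on day 0 to 14729 on day 3 in siCtrl and from 2749 to 13618 in siKlf5. The 3 endothelial and blood markers were below 1 in every library. RNA came from whole cultures, so fewer cells of a type and less RNA per cell cannot be told apart.

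The 5 genes of the Dlk1-Meg3 cluster were at or near 0 in every library, whatever the siRNA or day. They held 13 reads between them, 4 in the siCtrl and 9 in the siKlf5 libraries, of 52697463 and 41928976 reads. Of their 40 values, 34 were 0. The largest number of reads behind 1 value was 4.

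Dlk1 (NM_001190703, chr12:110691665-110701546 of mm9, plus strand), a transmembrane Notch-like protein of precursor cells, had 1 read, in the siKlf5 library of day 2. Meg3 (NR_027652, chr12:110779206-110809939, plus strand), a long noncoding RNA, was 0 in the 4 siCtrl libraries and 0.588, 0, 0.541 and 0.293 in siKlf5 on days 0 to 3, from 5 reads in all. Rian (NR_028261, chr12:110842155-110899921, plus strand), host of small nucleolar RNAs, was above 0 in the siCtrl library of day 2 alone, with 4 reads. These values lay at or close to the smallest that the depth can show. Mirg (NR_028265, chr12:110973191-110987667, plus strand), a host of miRNAs, had 3 reads, in the siKlf5 library of day 2. Rtl1 (NM_184109, chr12:110828379-110833613, minus strand), a gene derived from a retrotransposon, was 0 in all 8 libraries. A count of 0 allows up to 3 counts, and since reads often came in groups of 6 (as set out for the intervals of Grb10) this was taken as 18 reads, which is an FPKM of 1.32 to 3.47 for Dlk1, 2.82 to 7.38 for Meg3 and 1.02 to 2.68 for Rtl1, depending on the library. This limit covers counting error only. No difference between siRNAs or days was detectable for these 5 genes at this depth, and none of them reached the mean of 1 needed for the test.

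From Dlk1 to Dio3, a span of 827.6 kb (chr12:110691665-111519307), the table has 77 transcripts, of which 68 were 0 in all 8 libraries. That is 88.3% of them, whereas 19.3% of all transcripts in the table were 0 in all 8. The span held 25 reads in all, 8 in siCtrl and 17 in siKlf5, and no library had more than 10. Mir1906-1 and Mir1906-2 are listed at the same coordinates with the same 2 reads, so these were counted more than once. Small RNA genes that lie inside longer transcripts can also share reads with these, so other reads may be counted more than once. Dio3, the deiodinase gene at the far end, had 1 read. The highest means of the span were 4.17 for Mir377 and 2.47 for Mir381, short genes with 4 and 3 reads, each in 1 library.

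Within 1000000 bp of the span, 9 of 11 transcripts before Dlk1 and 11 of 15 after Dio3 had a mean of at least 10. Before Dlk1 these were Eml1, Gm16596, Evl, Degs2, Yy1, Slc25a29, Mir345, Wars and Wdr25, with Eml1 highest at a mean of 330.6. Begain, the next gene to Dlk1 in the table, had a mean of 0.536 from 19 reads. After Dio3 they were Ppp2r5c, Dync1h1, Hsp90aa1, Wdr20, Mok, Zfp839, Cinp, Tecpr2, Ankrd9, Rcor1 and Traf3. Hsp90aa1, which encodes a heat shock chaperone, had the highest mean of these at 1527.

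**Figure D1:**
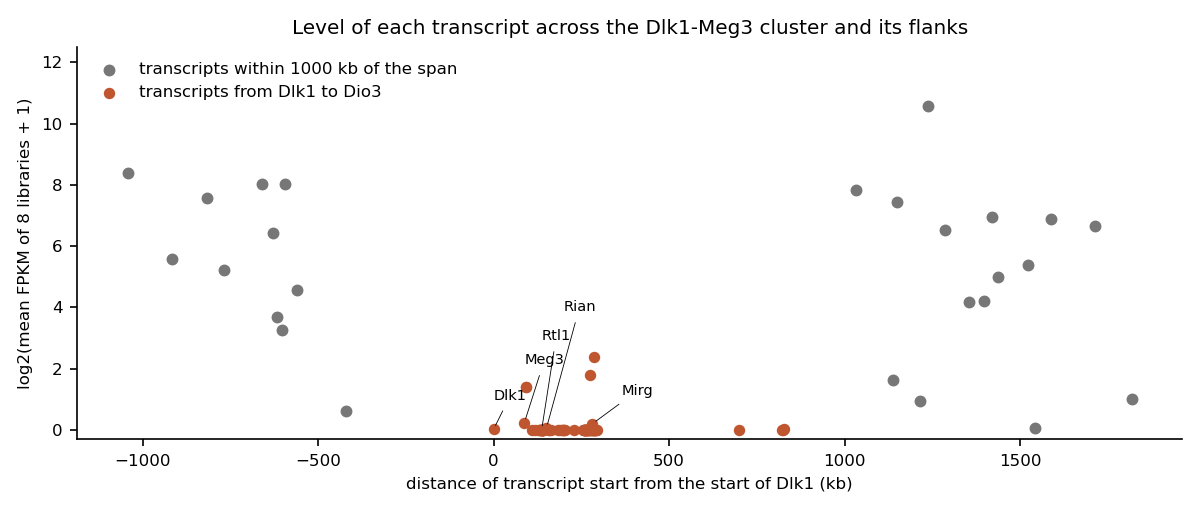
Each point is 1 transcript of the table, placed by the distance of its start from the start of Dlk1 in kb (horizontal axis) and by log2 of its mean FPKM over the 8 libraries plus 1 (vertical axis). The 77 transcripts from Dlk1 to Dio3 (orange) lie at 0 in 68 cases and at a mean of at most 4.17 in the others, and 20 of the 26 transcripts within 1000 kb on either side (grey) have a mean of at least 10.

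Of the 77 transcripts, 61 were miRNA genes, and 57 of these were 0 in all 8 libraries. Libraries of poly(A) RNA do not measure mature miRNAs, so these zeros concern the precursor and host transcripts only. 6 of the miRNA genes lie inside the single exon of Rtl1 on the opposite strand, and the mature sequences below, 1 arm of each, were all found in that exon in the mm9 genome. They are shown because the counting took reads of both strands, so a read from either strand of this stretch would have been given to Rtl1, and Rtl1 had none. Sequences are those of RefSeq (GRCm38.p6), 5′ to 3′, with the seed, bases 2 to 8, in capitals. The positions of the first and last on mm9 are chr12:110828669-110828689 and chr12:110833541-110833562, plus strand, and the 6 seeds all differ.
miR-431-5p: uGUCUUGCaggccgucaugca
miR-433-3p: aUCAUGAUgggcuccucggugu
miR-127-3p: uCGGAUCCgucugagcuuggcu
miR-434-3p: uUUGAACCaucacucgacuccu
miR-432: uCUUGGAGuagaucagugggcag
miR-136-5p: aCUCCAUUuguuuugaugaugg

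The 5 imprinted genes outside the cluster spanned a wide range of levels. Peg3 and Mest were well expressed, with means over the 8 libraries of 466.3 and 143.9 FPKM. Ndn and Grb10 were low, with means of 10.5 and 11.6, and Plagl1 was below 1, with a mean of 0.558. Peg3, Mest, Grb10 and Ndn thus reached the mean of 1 for the tests, as did 59.6% of all transcripts (14312 of 24016), and the other 6 did not.

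**Figure D2:**
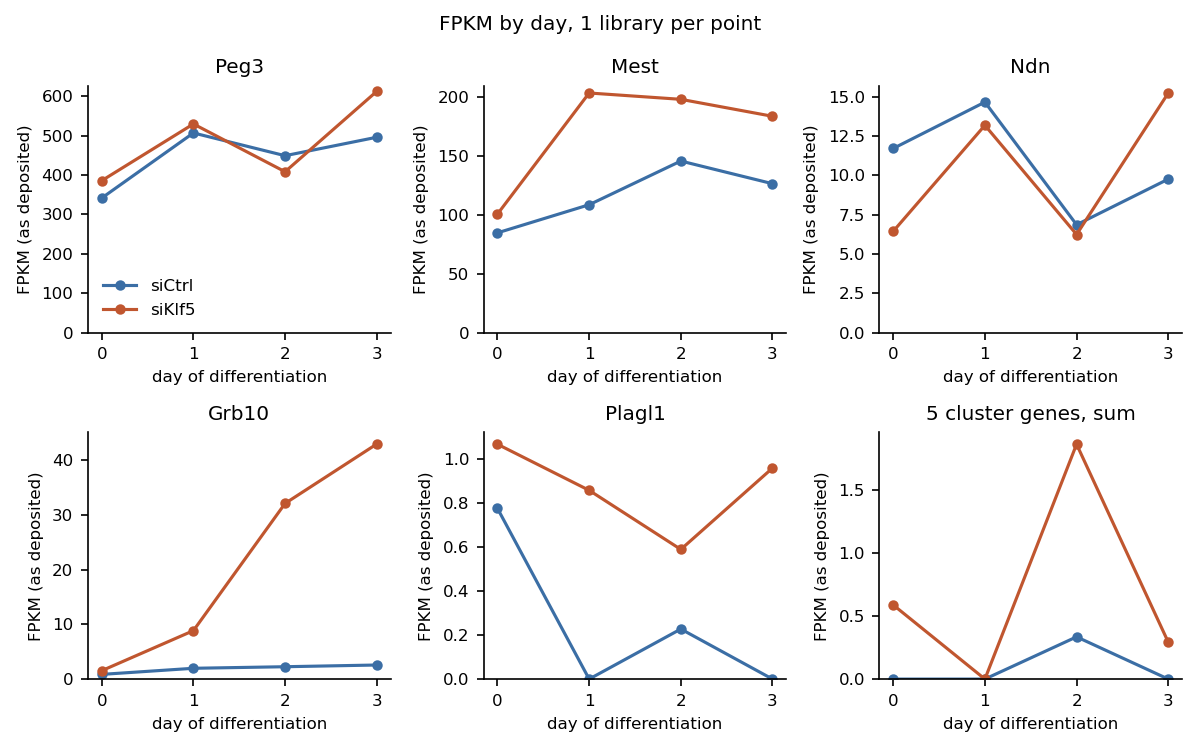
FPKM as deposited (vertical axes, each from 0) against the day of differentiation (horizontal axes) in siCtrl (blue) and siKlf5 (orange), 1 library per point, for Peg3, Mest, Ndn, Grb10, Plagl1 and the sum of the 5 cluster genes. Grb10 stays between 0.857 and 2.57 in siCtrl and reaches 42.9 in siKlf5, Mest is higher in siKlf5 on each day, and the cluster genes sum to less than 2 in every library.

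Differentiation was examined first. Among the 4 genes tested, 3 (Peg3, Mest and Grb10) rose from day 0 to day 3 in the fit over both siRNAs, in which 13.0% of all transcripts tested rose and 18.0% fell. Peg3 (NM_008817, chr7:6658671-6683130, minus strand), a zinc-finger protein of the paternal copy, was 341.6, 507.0, 449.2 and 496.1 in siCtrl on days 0, 1, 2 and 3. It was 385.8, 529.8, 408.5 and 612.7 in siKlf5. Day 0 was the lowest of the 4 days in both series, and the highest was day 1 in siCtrl and day 3 in siKlf5. Its change from day 0 to day 3 was 0.60 on the log2 scale (SE 0.12, limma, adjusted p = 0.00715). An antisense transcript, Peg3os, lies within Peg3 and was listed at a mean of 437.6, but because both strands were counted its reads cannot be told apart from those of Peg3.

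Mest (NM_008590, chr6:30688050-30698466, plus strand), also called Peg1, encodes an enzyme of the alpha/beta hydrolase fold. Its FPKM was 84.7, 108.5, 145.6 and 126.4 in siCtrl on days 0 to 3. It was 100.6, 203.4, 198.0 and 183.6 in siKlf5. Day 0 was again the lowest in both series, and in siKlf5 the level was already at its highest on day 1. The change from day 0 to day 3 was 0.72 (SE 0.17, limma, adjusted p = 0.0131).

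Peg3 and Mest had risen by day 1, by 0.51 (SE 0.12, limma, adjusted p = 0.0245) and 0.68 (SE 0.17, limma, adjusted p = 0.0271), in a comparison in which 6.76% of transcripts rose. Neither passed from day 1 to 2 or from day 2 to 3. These later steps called 1.69% and 0.0349% of all transcripts in either direction. The calls for Peg3 and Mest from day 0 to day 3 were lost in limma without a mean trend (adjusted p of 0.0608 and 0.0665), with no filter (0.0786 and 0.117) and with a straight line over the days in place of single days (0.112 and 0.0698). Another scaling of the libraries added 0.11 to every change from day 0 to day 3, which turned none of these directions.

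Ndn (NM_010882, chr7:69493163-69494813, plus strand) encodes necdin, a MAGE family protein of neurons and muscle precursors. Its FPKM was 11.7, 14.7, 6.86 and 9.77 in siCtrl and 6.45, 13.2, 6.24 and 15.2 in siKlf5, from 19 to 45 reads per library. Day 1 was above day 2 in both series, and the ranges of the siRNAs overlapped. The change from day 0 to day 3 was 0.44 with an SE of 0.49 (limma, adjusted p = 0.533).

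Grb10 (NM_001177629, chr11:11830502-11927974, minus strand), an adaptor protein that binds the insulin and IGF1 receptors and restrains growth, differed most between the siRNAs. In siCtrl its FPKM was 0.857, 1.97, 2.26 and 2.57 on days 0 to 3, from 8 to 36 reads per library. In siKlf5 it was 1.53, 8.85, 32.1 and 42.9, from 13, 56, 296 and 365 reads. The siKlf5 libraries of days 1, 2 and 3 were thus above all 4 siCtrl libraries, and on day 0 the values lay close together. Its change from day 0 to day 3, averaged over both siRNAs, was 2.53 (SE 0.82, limma, adjusted p = 0.0457). This call was lost with a pseudocount of 5 (adjusted p = 0.0653), a mean of at least 5 (0.0546) or limma without trend (0.106), and the adjusted p ran from 0.0318 to 0.406 over all 11 other settings. Within siCtrl the ratio of day 3 to day 0 was 0.94 on the log2 scale of FPKM plus 1, and within siKlf5 it was 4.12. By this ratio Grb10 and Ndn were past 2-fold higher in siKlf5, as were 13.8% of all transcripts tested, and none of the 4 genes was in siCtrl, where 14.3% were.

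Taken day by day, the ratio of the siKlf5 to the siCtrl value of Grb10 was 1.79 on day 0, with a 95% exact (Clopper-Pearson) interval of 0.120 to 48.9. It was 4.49 on day 1 (0.938 to 42.5), 14.2 on day 2 (6.08 to 40.6) and 16.7 on day 3 (6.31 to 61.2). The intervals were computed on reads divided by 6, since reads often came in groups of that size, and cover counting error only. On days 2 and 3 they did not include 1.

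In the test over days the difference of Grb10 was 2.29 on the log2 scale (SE 0.58, limma, unadjusted p = 0.00379, adjusted p = 0.257), higher in siKlf5 on 4 of 4 days. That of Mest was 0.53 (SE 0.12, limma, unadjusted p = 0.00193, adjusted p = 0.206), also higher on 4 of 4 days. Neither passed the threshold of 0.05 on the adjusted p, and none of the 4 genes did. That threshold called 0.0699% of all transcripts (10 of 14312, of which 9 were lower and 1 was higher in siKlf5), while 9.9% had an unadjusted p under 0.05. The exact sign-flip permutation test over the 4 days gave a two-sided p of 0.125 for each, the smallest that 4 days allow.

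The siRNA difference of Grb10 widened over the days, by 1.11 log2 units per day (SE 0.39, limma, unadjusted p = 0.0188), but the adjusted p was 0.883. In that limma fit 0.0% of the 14312 transcripts passed and 4.9% had an unadjusted p under 0.05, and 2 transcripts passed with limma's robust setting. Of all transcripts tested, 9.05% were higher in siKlf5 on all 4 days and 2.08% were past 1.5-fold higher on at least 3 of them. Of the 4 genes, Grb10 was past 1.5-fold higher on days 1, 2 and 3, beside 15.6%, 6.78% and 9.9% of all transcripts on those days, and the other 3 were not on as many days.

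**Figure D3:**
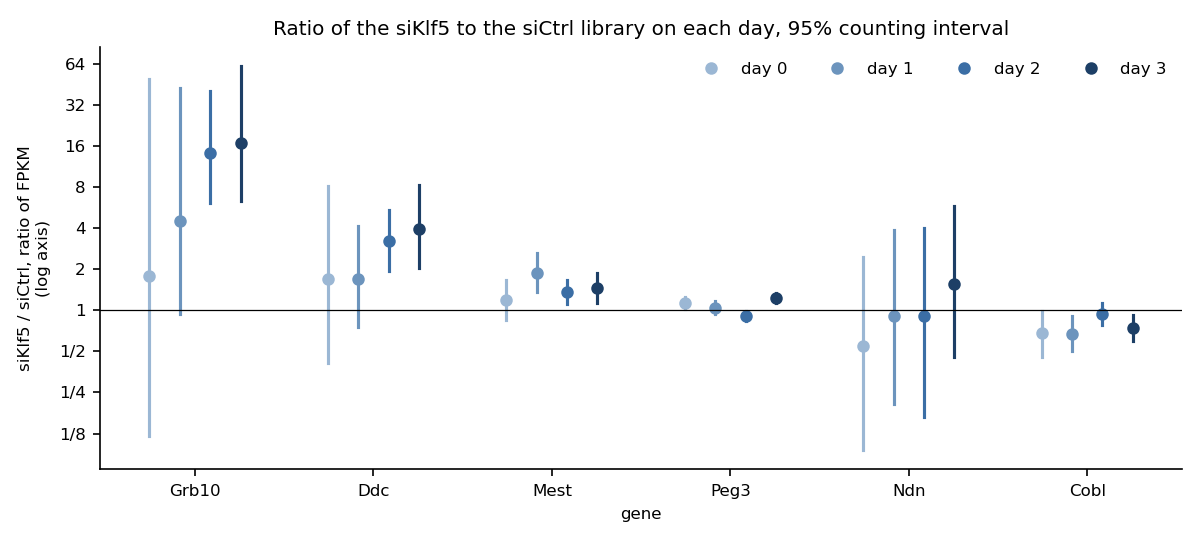
Ratio of the siKlf5 to the siCtrl FPKM on each day (vertical axis, log scale) for Grb10, Mest, Peg3 and Ndn and for Ddc and Cobl, the neighbours of Grb10. Points are the ratio of 1 library to 1 library, lines its 95% counting interval on reads divided by 6, and shades go from day 0 (light) to day 3 (dark). Intervals lie above a ratio of 1 for Grb10 and Ddc on days 2 and 3, for Mest on days 1, 2 and 3 and for Peg3 on days 0 and 3, and below 1 for Peg3 on day 2 and for Cobl on days 0, 1 and 3. They use the deposited scaling, and with other scalings the interval of Peg3 on day 2 includes 1.

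The ratio of Mest was 1.19 (interval 0.849 to 1.66) on day 0, 1.87 (1.36 to 2.61) on day 1, 1.36 (1.10 to 1.68) on day 2 and 1.45 (1.12 to 1.88) on day 3. On the log2 scale with a pseudocount of 1, only that of day 1 was past 1.5-fold, the cutoff of the study. Copg2, whose 3′ end overlaps that of Mest, was 116.6, 116.5, 169.3 and 147.1 in siCtrl and 109.2, 163.9, 157.5 and 157.3 in siKlf5, and the strands were not told apart in the counting. Copg2 was thus higher in siKlf5 on days 1 and 3 and lower on days 0 and 2. The test over days gave 0.10 (SE 0.12, limma, adjusted p = 0.832) for it.

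Peg3 and Ndn did not share a direction over the days. The ratio of Peg3 was 1.13 (interval 1.02 to 1.25), 1.05 (0.943 to 1.16), 0.909 (0.837 to 0.987) and 1.24 (1.14 to 1.34) on days 0 to 3. Its counting intervals thus lay above 1 on days 0 and 3 and below 1 on day 2, and its difference over days was 0.10 (SE 0.09, limma, adjusted p = 0.737). The upper limit of day 2 was -0.018 on the log2 scale. Either of the other scalings of the libraries added 0.05 to every log2 ratio of that day, so this interval then includes 1. The ratio of Ndn was 0.550, 0.899, 0.910 and 1.56, with intervals that all included 1, and its difference over days was -0.11 (SE 0.34, limma, adjusted p = 0.951). Ndn was past 1.5-fold lower on day 0 and past 1.5-fold higher on day 3, as were 10.0% and 9.9% of all transcripts.

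Plagl1 (NM_009538, chr10:12810594-12851501, plus strand) encodes a zinc-finger transcription factor whose level is known to go with that of many other imprinted genes. Its FPKM was 0.774, 0, 0.227 and 0 in siCtrl and 1.07, 0.856, 0.588 and 0.957 in siKlf5. These rest on 8, 0, 4 and 0 reads and on 10, 6, 6 and 9 reads. The siKlf5 value was the higher one on 4 of 4 days, but 6 reads or fewer can come from a single fragment here, and Plagl1 was below the mean needed for the test. Its expressed neighbours Sf3b5 and Ltv1 had means of 369.2 and 239.8.

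The neighbours of Grb10 were examined because imprinting often extends over adjacent genes. Ddc (NM_016672, chr11:11714104-11790411, minus strand), which encodes aromatic L-amino acid decarboxylase and shares an imprinted domain with Grb10, lies 40.1 kb from it in the table. Its FPKM was 6.29, 24.5, 23.0 and 18.1 in siCtrl on days 0 to 3. It was 10.7, 41.8, 73.8 and 71.4 in siKlf5. The siKlf5 library was the higher one on each day, and its values on days 1 to 3 lay above all 4 siCtrl values.

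The ratio of Ddc was 1.70 on days 0 and 1, 3.20 on day 2 (interval 1.93 to 5.44) and 3.94 on day 3 (2.03 to 8.23). In the test over days it differed by 1.25 (SE 0.28, limma, unadjusted p = 0.00177, adjusted p = 0.202) and so did not pass the threshold. From day 0 to day 3 Ddc rose by 2.01 (SE 0.39, limma, adjusted p = 0.00548). Cobl (NM_172496, chr11:12136679-12364963, minus strand), an actin nucleator 208.7 kb away on the other side of Grb10, was lower in siKlf5 on 4 of 4 days. Its difference over days was -0.41 (SE 0.14, limma, adjusted p = 0.384), so that the 3 neighbouring genes did not share a direction.

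The 250 bases before the start of the counted transcript are shown for Grb10 and Ddc, whose siKlf5 values were higher together. They are also shown for Mest, the other gene of the 4 tested that was higher in siKlf5 on 4 of 4 days. Plagl1, Peg10 and Nnat were also higher on 4 of 4 days, but their windows were not looked at. The sequences were read from the mm9 genome on the strand of the gene, 5′ to 3′, and each was identical to the same stretch of 1 RefSeq (GRCm38.p6) promoter of that gene. They span chr11:11927975-11928224 (Grb10, minus strand), chr11:11790412-11790661 (Ddc, minus strand) and chr6:30687800-30688049 (Mest, plus strand). RefSeq held 2, 2 and 3 promoter windows for Grb10, Ddc and Mest, and which of them gave the RNA was not tested. Capitals mark CACCC, a core of the motif that factors of the Klf family bind, and the GC box GGGCGG, each searched on both strands.
Grb10: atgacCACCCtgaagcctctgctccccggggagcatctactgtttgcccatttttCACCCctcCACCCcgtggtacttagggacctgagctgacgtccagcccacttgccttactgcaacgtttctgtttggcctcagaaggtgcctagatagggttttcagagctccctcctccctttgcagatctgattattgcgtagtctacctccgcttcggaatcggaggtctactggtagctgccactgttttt
Ddc: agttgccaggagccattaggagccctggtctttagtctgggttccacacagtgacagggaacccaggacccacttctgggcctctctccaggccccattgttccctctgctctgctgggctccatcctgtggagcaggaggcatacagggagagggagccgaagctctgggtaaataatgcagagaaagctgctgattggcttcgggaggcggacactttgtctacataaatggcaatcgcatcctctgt
Mest: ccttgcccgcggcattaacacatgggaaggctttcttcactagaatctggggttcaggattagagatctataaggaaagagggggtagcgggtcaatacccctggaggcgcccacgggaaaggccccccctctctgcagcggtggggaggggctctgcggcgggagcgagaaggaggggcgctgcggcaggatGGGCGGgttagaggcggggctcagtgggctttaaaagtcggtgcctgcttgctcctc

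The Grb10 window held CACCC 3 times, the Ddc window held neither motif and the Mest window held GGGCGG once. Windows not printed here were those of Peg3, which did not share a direction over the days and held CACCC 2 times, and of Cobl, which was lower in siKlf5 and held GGGCGG 2 times. The Peg3 window overlapped 1 annotated exon of Peg3. Of 32841 promoter windows of the same length, 52.0% held CACCC at least once, 6.92% held it at least 3 times and 32.7% held GGGCGG. The windows held 8, 4, 14, 8 and 36 CpG dinucleotides for Grb10, Ddc, Mest, Peg3 and Cobl, and the median of all windows was 6. A match is only a description of the letters in these windows, and binding of Klf5 there was not analysed here.

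Muscle and cell division markers moved with the days and partly with the siRNA. The summed level of the 8 muscle markers was 3245, 12050, 11666 and 14729 in siCtrl on days 0 to 3, and 2749, 11367, 13791 and 13618 in siKlf5, so that siKlf5 was the higher one on day 2 and the lower one on the other days. The markers did not move as 1 group, since 1, 3, 7 and 5 of the 8 were higher in siKlf5 on days 0 to 3. The siCtrl library of day 2 was the deepest, with 20301506 reads against 11808641 in siKlf5 on that day. At most 3 reads per position were counted. The part of depth and of this limit in the marker values of day 2 was not tested. Myog, the muscle regulator myogenin, was lower in siKlf5 on 4 of 4 days, with 2293 in siCtrl and 1386 in siKlf5 on day 3. Acta1, skeletal muscle actin, was higher on 4 of 4 days, with 4150 in siCtrl and 4351 in siKlf5 on day 3. The summed level of 5 cell division markers was 2450 on day 0 and 708.8 on day 3 in siCtrl, and 2659 and 929.3 in siKlf5. Of 5 adipocyte markers the sum lay between 70.7 and 174.2 in siCtrl and between 58.2 and 143.5 in siKlf5. It came mostly from Pparg and Cebpa, which moved in opposite directions. From day 0 to day 3 Pparg went from 156.0 to 42.0 in siCtrl and from 132.9 to 33.6 in siKlf5. Cebpa went from 16.6 to 35.0 and from 10.6 to 35.4. Fabp4 and Adipoq were at most 1.60 and 3.81, and Plin1 was 0 in all 8 libraries. The part of these markers in the differences of Grb10, Ddc and Mest was not tested.

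Other imprinted genes were set beside these 10 with a list of 57, of which 55 were in the table by symbol and 38 reached the mean of 1. Among the 38, Snrpn and Snurf are listed at nearly the same coordinates with nearly the same reads (1481 and 1479 in all) and were counted separately. From day 0 to day 3, 9 of the 38 rose and 2 fell, beside 13.0% and 18.0% of all transcripts, and the median change was 0.25 against -0.08 over all transcripts tested. In the test over days for the siRNA, none of the 38 passed and the median difference was -0.02 against 0.01 over all transcripts. At an unadjusted p under 0.05 there were 7 of the 38, beside 9.9% of all transcripts. Of the 30 with a mean of at least 10, Ddc alone was past 1.5-fold in 1 direction on at least 3 days. Over all transcripts tested this share was 5.25%, but at the looser filter of a mean of at least 1, so the shares cannot be compared directly. Nnat, a membrane protein gene named after its values were seen and with a lower mean, was past 1.5-fold higher on 3 days, and its 8 values rest on 115 reads in all.

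Igf2 (NM_001122737, chr7:149836673-149843386, minus strand), the growth factor IGF2 of the paternal copy, was 23.4, 284.2, 412.9 and 402.6 in siCtrl and 18.97, 383.7, 549.2 and 522.2 in siKlf5 on days 0 to 3. Day 0 was the lowest in both series by more than 10-fold. Igf2 rose by 4.38 (SE 0.18, limma, adjusted p = 1.98e-06), and its difference between siRNAs over days was 0.23 (SE 0.13, limma, adjusted p = 0.596). H19, the noncoding RNA next to Igf2 and expressed from the maternal copy, was the most abundant imprinted RNA of the list, between 2718 and 6479. It rose by 1.13 (SE 0.18, limma, adjusted p = 0.00187), and its siRNA difference was 0.01 with an SE of 0.12 (limma, adjusted p = 0.994).

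Dcn, the matrix proteoglycan decorin, rose by 3.18 (SE 0.14, limma, adjusted p = 2.58e-06). Zim1, a zinc-finger gene beside Peg3, rose by 1.62 (SE 0.23, limma, adjusted p = 0.00126), Trappc9 by 1.25, Igf2r by 0.66, Cobl by 1.58 and Ins2 by 4.64. Ins2, the insulin gene next to Igf2, had 81 reads in all, and the SE of its rise was 0.94. It had 0 reads in both day 0 libraries and 16 (siCtrl) and 26 reads (siKlf5) on day 3, or 17.5 and 32.5 FPKM. A count of 0 allows 12.0 to 31.5 FPKM for Ins2, depending on the library, so the size of its rise rests on the pseudocount. Peg10, derived from a retrotransposon as Rtl1 is, and Commd1 fell by 0.86 and 0.45 (limma, adjusted p of 0.0320 and 0.0127). Peg10 was higher in siKlf5 on 4 of 4 days (0.63, SE 0.18, limma, adjusted p = 0.303). Pon2 and Cd81 passed only from day 0 to day 1, with changes of -0.64 and 0.44.

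**Figure D4:**
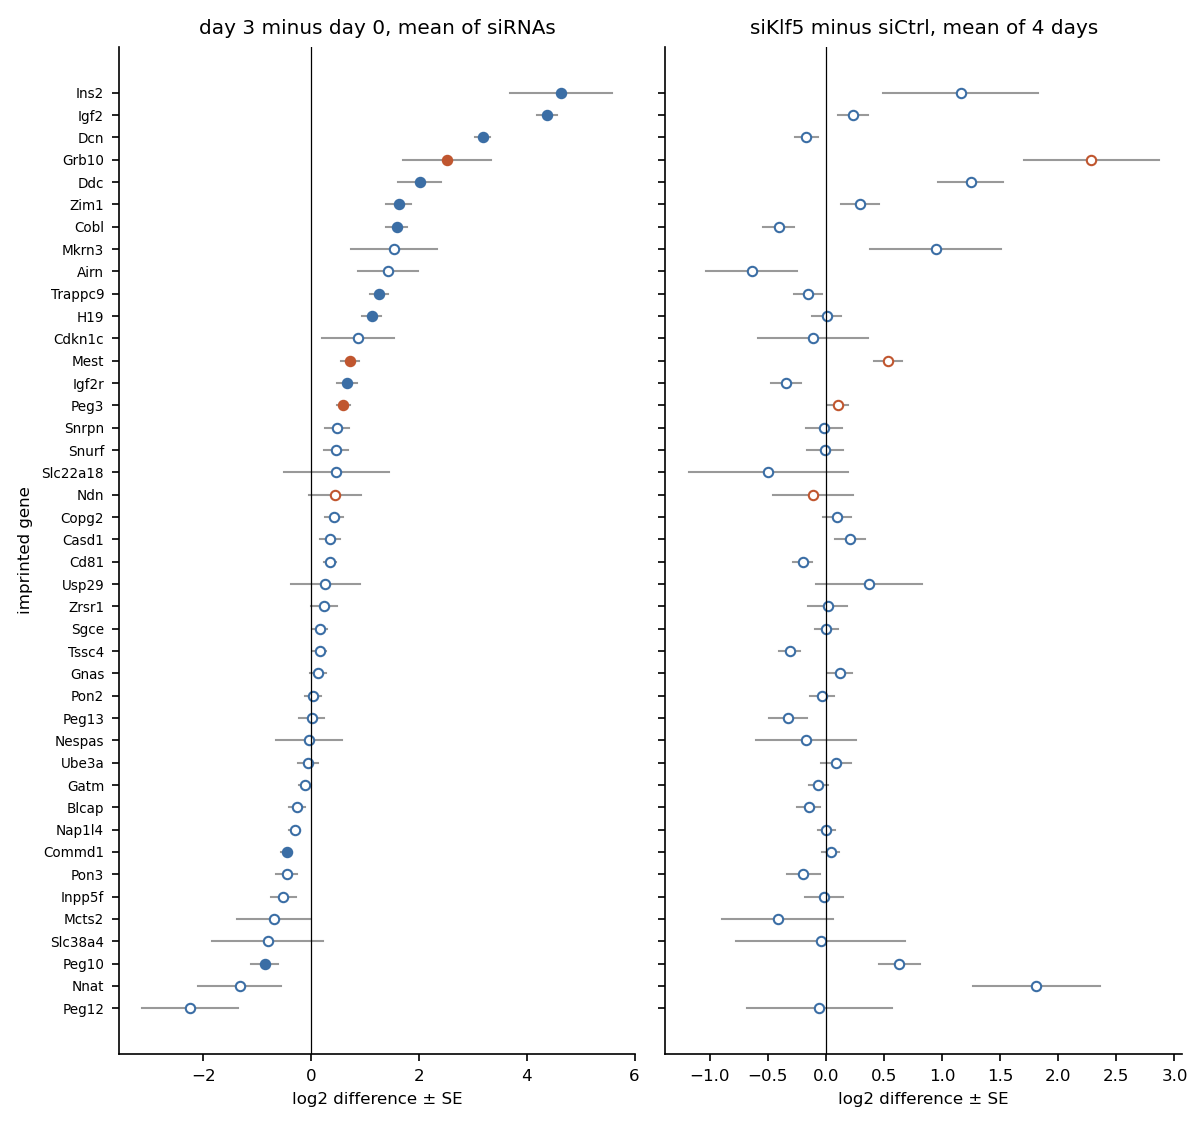
Log2 difference ± SE from limma (horizontal axes) for the 42 imprinted genes tested (vertical axis), 4 of the 10 described here in orange and 38 others in blue, from day 0 to day 3 (left) and between siKlf5 and siCtrl over the 4 days (right). Filled points passed an adjusted p of 0.05. Snrpn and Snurf, with nearly the same coordinates and reads, are shown separately. On the left 12 rose and 2 fell, and on the right none passed.

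A list of 16 imprinted genes known to be co-expressed with Plagl1, 7 of the 10 among them, had 13 members with a mean of at least 1. From day 0 to day 3, 7 of the 13 rose and none fell at an adjusted p under 0.05 in limma, beside 13.0% and 18.0% of all transcripts. At an unadjusted p under 0.05 it was also 7, beside 42.0%. These 7 were Peg3, Mest, Grb10, Igf2, H19, Dcn and Igf2r, all given above, so this list adds no further gene that rose. The median change of the 13 was 0.66 against -0.08 over all transcripts. For the siRNA difference none of the 13 passed, 3 had an unadjusted p under 0.05 (9.9% of all transcripts did), and 7 were higher and 6 lower in siKlf5. Plagl1, Dlk1 and Meg3 were the 3 of the list below the mean of 1.

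The transcripts whose log2(FPKM + 1) over the 8 libraries was most like that of Mest were Dpysl3, Gulp1 and Vdr, with Pearson r of 0.97 for each, among 11590 compared. For Grb10, in a comparison added after its values were seen, they were Pcdhgc3, Dusp13 and Cst3, with r of 0.98, 0.98 and 0.97. Dusp13, a phosphatase gene, was 118.7, 114.2, 135.5 and 149.4 in siCtrl and 126.7, 166.5, 237.0 and 276.9 in siKlf5. It was thus higher in siKlf5 on each day, as Grb10 was, over a much narrower range. The 8 points share the days and the scaling of the libraries, so r is given as a description only. The 1 read of Dlk1 and the 5 reads of Meg3 set any such likeness for these genes, and none is given.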

How the data were processed

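Poly(A) RNA of 8 samples was analysed, and the 6 ChIP-seq samples were not analysed here. The submitters' processing notes name STAR, HOMER and mm9. Per the file headers, the deposited FPKM values count reads on exons over both strands, with at most 3 reads per position and 1 transcript per gene. The deposited log2 columns were not used, and 1 of them carries no day in its name.

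Reads were recovered from FPKM and exon length. In each library 9809 to 12358 low values were checked, and 100.0% came within 0.1 of whole reads. Transcripts with exactly 6 reads outnumbered those with 5 by 2.83 to 10.0 times, so intervals were made on reads divided by 6 and take in counting error alone.

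Ratios and fits used log2(FPKM + 1), which understates the change of low transcripts, and transcripts with a mean FPKM of at least 1. limma 3.58.1 (eBayes with trend, R 4.3.3) was fitted to all 14312 transcripts with day and siRNA as terms (3 residual degrees of freedom), and with siRNA by day number added (2 degrees of freedom), with Benjamini-Hochberg adjustment over all transcripts. With 1 library per siRNA and day, p-values for the siRNA measure how its difference varies over the days. Those for a change between days measure how that change varies between the siRNAs. Neither measures the spread between replicate cultures. Of the fits, only that of the siRNA over days was run on simulated reads. These had counting error and a siRNA difference that was the same on each day, without variation between cultures. This simulation thus does not show how the fit behaves on the real libraries. Alternatives were other pseudocounts (0.1 and 5), filters, scalings, limma settings, cutoffs, leaving out each day, and a fit without the day block.

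The genes named were all 10, Klf5, transcripts with a mean of at least 10 within 1000000 bp of the cluster, the nearest neighbours with such a mean, imprinted genes of a written list with such a mean that passed a test or 1.5-fold on at least 3 of 4 days, and the 3 transcripts most like Mest and, added after its values were seen, Grb10. The rule also named those most like Dlk1 and Meg3, which rest on 1 and 5 reads and are not given. The genes and lists were chosen with earlier results of these data known. Promoters and miRNAs came from RefSeq (GRCm38.p6) and sequence by coordinates from the mm9 genome. Tables and plots were made with Python 3.11.15 (pandas 2.3.3, numpy 2.4.6, matplotlib 3.10.9, scipy 1.17.1).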

Additional observations from a re-analysis of the deposited data

Results flagged for a closer look

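The siRNA difference of Grb10 changed over the days by 1.11 log2 units per day (SE 0.39, limma, unadjusted p = 0.0188, adjusted p = 0.883), which is why it was picked out, by a test of the change itself at the unadjusted level. At that level 4.9% of all transcripts were picked out, and none passed after adjustment in limma with trend. Without day 0 the change was 0.95 per day and without day 3 it was 1.45 per day.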

How the results depend on the processing

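With 1 library per siRNA and day, no value has a replicate error, and depth limits Plagl1 and the 5 cluster genes, which could not be tested. The direction of Grb10 and Mest in the siRNA test over days held under 13 of 13 other settings, and neither gene passed under any (adjusted p of 0.174 to 1.0 and 0.153 to 1.0).

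The number of transcripts called for the siRNA over days, 10, became 24 with robust limma and 0 in limma without trend, with no filter, without the day block, and without any 1 of the days (lowest 0, highest 0). The day number stands in for a replicate number, and the fit without it is the unpaired one. The 4444 calls from day 0 to day 3 became 2926 in limma without trend, 2143 with no filter and 0 with a line fitted within siCtrl or within siKlf5 alone, which has 4 samples each. The number of the 4 genes called there, 3, became 0 in these 4 settings and 1 with a line over both siRNAs. Grb10 kept that call in 5 of 11 settings, and Peg3 and Mest in 6 of 11 each. The siRNA by day test called 2 transcripts with robust limma.

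Of the 4 genes tested, those past 1.5-fold in either direction numbered 1, 2, 1 and 2 on days 0 to 3. Of all transcripts tested, 8.18%, 15.6%, 6.78% and 9.9% were past it higher on these days. Lower were 10.0%, 10.3%, 11.6% and 11.6%. These shares are for the main setting, and none is given for the others. The number of the 4 genes on day 0 became 2 with a pseudocount of 0.1 or no filter, and 0 with a pseudocount of 5 or a cutoff of 2-fold. On days 1 and 3 it became 1 at 2-fold, on day 2 it became 3 with no filter, and on day 3 it became 1 with a pseudocount of 5. Genes past 2-fold from day 0 to day 3, 0 in siCtrl and 2 in siKlf5, became 1 in siCtrl with a pseudocount of 0.1 or median-ratio scaling, and 1 in siKlf5 with a pseudocount of 5 or from day 0 to day 2.

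4 values turned sign, none of them past the threshold in either form. Ndn became -0.51 from day 0 to day 3 by a line within siCtrl, and for the siRNA ran from -0.34 (without day 3) to 0.11 (without day 0) when 1 day was left out. Leaving out 1 day, the siRNA by day change ran from -0.16 (without day 3) to 0.12 (without day 0) for Peg3 and from -0.18 (without day 0) to 0.10 (without day 3) for Mest. The causes were not tested.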
